A study of Mus musculus with 12 samples.

Results

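Anaplerosis and transamination enzymes were described here through 9 genes: Gpt2, Got1, Got2, Glud1, Glul, Pcx, Me1, Me3 and Mdh1. They were taken by gene symbol from a table of 43686 rows, and all 9 had a row. The table names 8 of them in its gene name column. It leaves the name of the Me3 row blank (MGP_C57BL6NJ_G0032981, chromosome 7, 95608933 to 95835367, plus strand), and its own KEGG annotation calls that row Me3. RNA-seq of ventricular wall tissue gave 6 WT and 6 KO libraries. By the study's methods, the WT mice were littermates with floxed alleles and no Cre (Sdhaf4fl/fl), and the KO mice carried the same floxed alleles with Ckmm-Cre (Sdhaf4fl/fl,Ckmm-Cre), in which the muscle creatine kinase promoter drives Cre in cardiac and skeletal muscle, and other cells of the heart are not targeted. The labels name the strain of both groups as C57BL/6, the study's methods name it as C57BL/6J after backcrossing, and the labels give no treatment. The labels also give an age of 2 months. The study's reporting summary names 2 ages for omics work, of which only the older comes close to that of the labels. The study's account of the RNA-seq puts the hearts at a younger age than the labels do. Mutants are called null for Sdhaf4 in the labels, with no mention of a Cre. The labels number the libraries of each genotype and do not say that each is a separate animal, so p-values measure the spread between these libraries.

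SDHAF4 helps to assemble complex II, the enzyme that oxidizes succinate in the TCA cycle and passes the electrons to the respiratory chain. Anaplerosis is the refilling of the TCA cycle: pyruvate carboxylase (Pcx) makes oxaloacetate from pyruvate, glutamate dehydrogenase (Glud1) and the transaminases (Gpt2, Got1, Got2) exchange glutamate for alpha-ketoglutarate, and malic enzymes (Me1, Me3) link malate and pyruvate. The aspartate transaminases and the malate dehydrogenases also run the malate-aspartate shuttle, which carries the electrons of cytosolic NADH into mitochondria and is a main route for them in the heart. Glutamine synthetase (Glul) condenses glutamate and ammonia to glutamine.

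The libraries held 23747014 to 27159228 counts in WT and 26542930 to 31393393 in KO. Sdhaf4 itself was at 14.3, 26.7 and 30.3 CPM (counts scaled to library size, with TMM factors; lowest, median and highest of 6 libraries) in WT and at 2.25, 2.35 and 2.73 in KO. The groups did not overlap, and the lowest WT value, that of replicate 6, lay below the other 5 (24.1 to 30.3). Of 10 cardiomyocyte markers 1 was higher and 5 were lower in KO, and their summed level was 55532 to 60742 CPM in WT and 47653 to 61775 in KO. All 8 fibroblast markers were higher in KO, with a sum of 1402 to 1716 CPM in WT and 2518 to 5006 in KO. Of the other lists, 4 endothelial markers of 7 were higher and 1 was lower, 1 macrophage marker of 7 was higher and 2 were lower, 2 smooth muscle and pericyte markers of 7 were higher and 2 were lower, and none of the 4 blood markers tested was called by edgeR. At the adjusted p of 0.05 used here, 60% of cardiomyocyte and 71.4% of endothelial markers were called. The share was 42.9% for macrophage and 57.1% for smooth muscle and pericyte markers. Over all 17155 rows tested, 51.1% were called, and these differences were not tested. Of 8 adipocyte markers, 7 had at most 24 counts in a library (Adipoq, Plin1 and Lep at most 11, 7 and 1), and Cidea, the only one tested, was higher in KO without overlap (35.8 to 45.4 CPM in WT and 50.1 to 66.9 in KO, log2 fold change 0.53, edgeR adjusted p = 5.7e-05). Of 5 atrial markers, Myl7, Sln and Bmp10 had at most 9, 6 and 1 counts, and both that were tested were higher in KO: Nppa with a log2 fold change of 5.65 (adjusted p = 2.0e-07) and Myl4 with 0.72 (adjusted p = 0.0052, groups overlapping). Nppa encodes natriuretic peptide type A, which the study measured in left ventricles among genes tied to hypertrophy and fibrosis. It is thus not a marker of atrial tissue alone. KO replicates 3 and 6 stood apart from the other KO libraries. The chi-square between the counts of 2 libraries, divided by its degrees of freedom, was 29.3 to 53.1 for pairs with KO replicate 3 and 23.7 to 47.9 for pairs with KO replicate 6, against 11.7 to 16.9 among the other 4 KO libraries and 7.25 to 22.2 among WT. The part of these other cells in the results on the enzymes was not tested, and in bulk tissue fewer cells of a type and less RNA per cell cannot be told apart.

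Of the 9 enzyme genes, 6 were lower in KO (Gpt2, Pcx, Me3, Got1, Mdh1 and Glud1), 2 were higher (Glul and Me1) and 1 was not called (Got2), at an adjusted p of 0.05 in edgeR's quasi-likelihood test. The same 8 genes were called, in the same directions, with KO replicates 3 and 6 both left out. Over all 17155 rows tested, the same threshold called 51.1%, with 25.6% higher and 25.5% lower, so that a call by itself is common in these hearts. The share of the 9 genes called was above that, at 88.9%, a difference that was not tested. The median log2 fold change of the 9 genes was -0.19, against 0.0022 over all rows. With an adjusted p of 0.005 and an absolute log2 fold change of 1, the study's stricter thresholds, Gpt2 alone was called, and 10.2% of all rows were (4.87% lower and 5.36% higher). KO and WT libraries did not overlap for 4 genes (Gpt2, Pcx, Me3 and Glud1), and for 30.1% of all rows. Among the 5 genes whose enzymes work in mitochondria (Gpt2, Got2, Glud1, Pcx and Me3), 4 were lower, none was higher and the median log2 fold change was -0.39, whereas among the 4 whose enzymes are cytosolic (Got1, Glul, Me1 and Mdh1) 2 were lower and 2 were higher, with a median of 0.02. These compartments are textbook assignments, the members of both were chosen with earlier results known, and the difference was not tested.

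**Figure D1:**
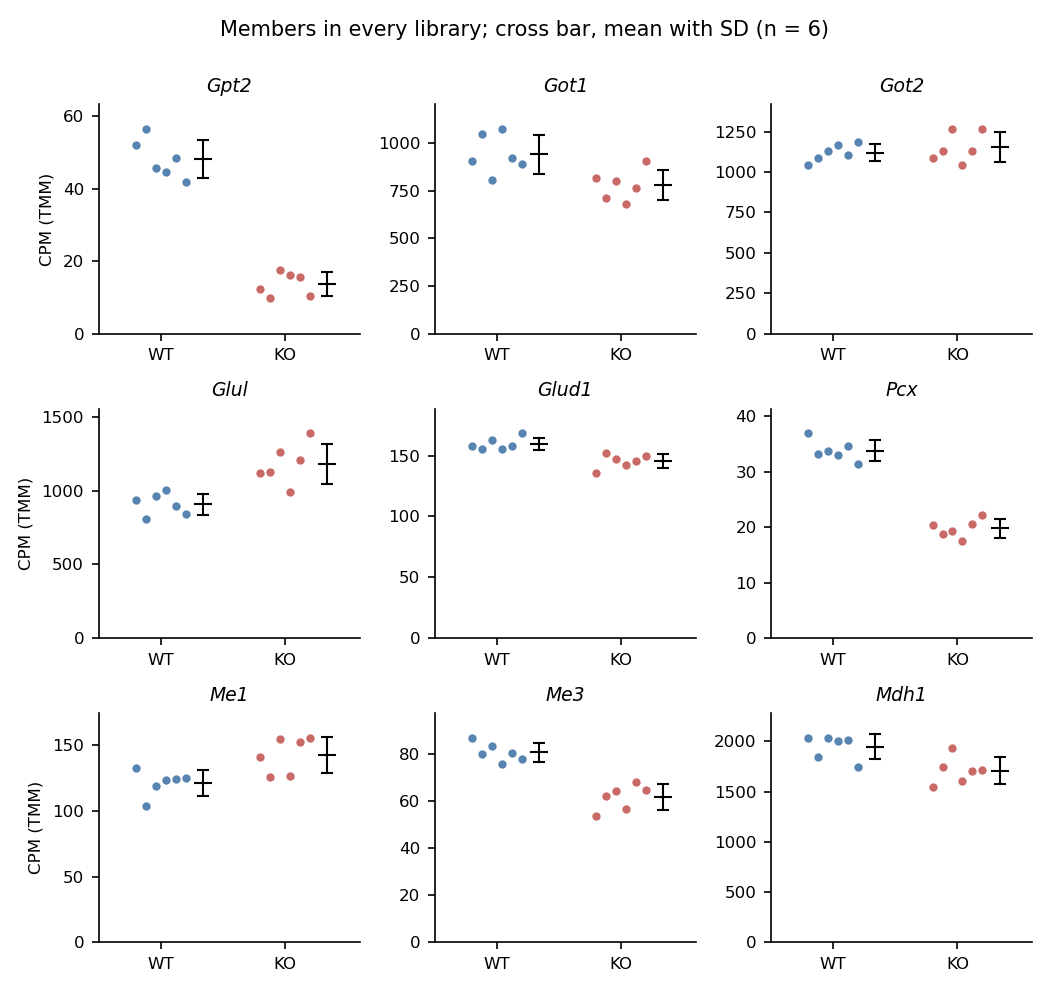
Each panel plots 1 enzyme gene, with its TMM-scaled level in CPM on a linear axis from 0, 6 WT libraries in blue and 6 KO libraries in red, ordered by replicate number within a group, and the mean with its SD as a black cross bar. The KO points lie below every WT point for Gpt2, Pcx, Me3 and Glud1, and the groups overlap for the other 5 genes.

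The change was largest for Gpt2, the mitochondrial alanine transaminase, which interconverts alanine and alpha-ketoglutarate with pyruvate and glutamate (MGP_C57BL6NJ_G0034399, chromosome 8, 89771137 to 89808145, plus strand, on the C57BL/6NJ assembly of the table). Gpt2 stood at 41.9, 47.1 and 56.4 CPM (lowest, median and highest) in WT and at 9.86, 13.9 and 17.6 in KO. Every KO library was below every WT library by a wide margin. Mean levels were 48.2 ± 5.29 and 13.6 ± 3.23 CPM (SD, n = 6 each). The log2 fold change was -1.82 (95% interval -2.11 to -1.52, standard error 0.14, edgeR adjusted p = 7.8e-08), so the level fell by 71.6%. Of all rows tested, 4.1% had a larger absolute change. The raw counts of Gpt2 ran from 263 to 1562 a library.

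The cytosolic alanine transaminase, Gpt, fell by less: from 28.6 ± 5.59 to 18.9 ± 2.29 CPM (log2 fold change -0.60, standard error 0.12, edgeR adjusted p = 0.00061). Its libraries did not overlap either, at 21.6 to 36.8 CPM in WT and 16.1 to 20.9 in KO. Levels of different genes were set side by side with the deposited FPKM, which divides by a length per gene. On that scale Gpt2 made up 62.9% ± 5.47 of the alanine transaminase sum in WT and 41.7% ± 6.37 in KO, and the sum itself went from 43.9 ± 3.63 to 18.6 ± 2.19 FPKM. These shares depend on the length: the deposited FPKM uses 1742 bases for Gpt2, where the table's own length column gives 3639, and 1749 for Gpt, as in that column. With the length column Gpt2 made up 45.0% ± 5.81 in WT and 25.7% ± 4.95 in KO, so which of the pair is higher in WT turns with the length, while the share was lower in every KO library than in any WT library on both scales. Within a library, the log2 ratio of Gpt2 to Gpt was 0.28 to 1.28 in WT and -0.99 to -0.01 in KO. The difference in this ratio between the groups depends neither on the scaling between libraries nor on the lengths. It differed by -1.26 (standard error 0.21; two-sided exact permutation test over libraries, p = 0.0022, the smallest that 6 against 6 can give; adjusted p = 0.0036 over the 5 ratios compared), so Gpt2 fell further than its cytosolic counterpart.

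**Figure D2:**
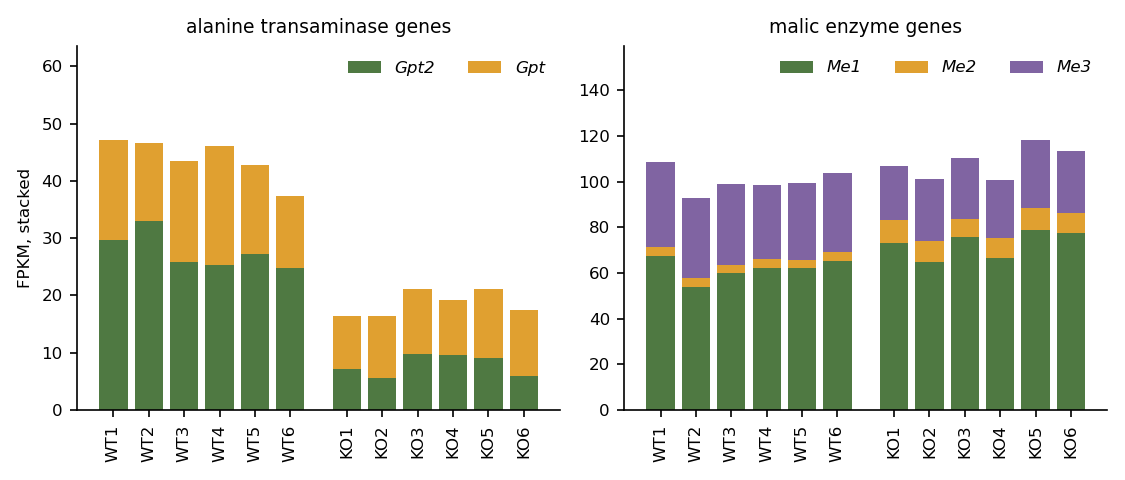
The bars stack the FPKM of the genes of an enzyme family in each of the 12 libraries, alanine transaminases on the left (Gpt2 green, Gpt orange) and malic enzymes on the right (Me1 green, Me2 orange, Me3 purple), on linear axes from 0. The alanine transaminase sum runs from 37.4 to 47.1 FPKM in WT and from 16.4 to 21.2 in KO, while the malic enzyme sums of the groups overlap (92.8 to 108.8 in WT and 100.6 to 118.3 in KO).

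The promoter of Gpt2, the gene that moved most, is shown with those of Got1 and Got2, the pair of aspartate transaminases that moved unequally (below). Each line holds the 250 bases before the RefSeq start of the gene on GRCm38.p6, read 5′ to 3′ along the gene's strand: Gpt2 at chr8:85492326-85492575 (plus strand), Got1 at chr19:43524606-43524855 (minus strand) and Got2 at chr8:95888402-95888651 (minus strand). Capitals mark matches to 6 motifs searched on both strands: the ERR half-site AAGGTCA, the hypoxia response element core ACGTG or GCGTG, the C/EBP-ATF composite TGATGNAA, the antioxidant response element core TGACNNNGC, the cAMP response element TGACGTCA and the CCAAT box CCAAT.
Gpt2: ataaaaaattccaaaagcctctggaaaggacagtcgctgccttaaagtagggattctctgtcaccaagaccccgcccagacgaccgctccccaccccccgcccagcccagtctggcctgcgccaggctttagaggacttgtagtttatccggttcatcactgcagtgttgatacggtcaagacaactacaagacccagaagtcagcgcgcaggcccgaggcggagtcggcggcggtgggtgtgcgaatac
Got1: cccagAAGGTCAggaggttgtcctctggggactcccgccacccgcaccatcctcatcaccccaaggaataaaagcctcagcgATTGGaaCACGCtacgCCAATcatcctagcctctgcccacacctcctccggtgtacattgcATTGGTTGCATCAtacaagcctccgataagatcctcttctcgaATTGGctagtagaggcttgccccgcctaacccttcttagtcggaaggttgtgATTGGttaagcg
Got2: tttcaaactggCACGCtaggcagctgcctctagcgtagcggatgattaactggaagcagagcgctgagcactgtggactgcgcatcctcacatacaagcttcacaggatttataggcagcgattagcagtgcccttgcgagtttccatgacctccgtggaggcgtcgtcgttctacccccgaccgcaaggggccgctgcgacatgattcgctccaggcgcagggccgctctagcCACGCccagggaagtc

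The Gpt2 window held none of these letters. The Got1 window held an ERR half-site 245 bases before the start, a C/EBP-ATF composite 102 bases before it, directly after a CCAAT box, a hypoxia response element core, and 5 CCAAT boxes in all. The Got2 window held 2 hypoxia response element cores. Across all 32841 windows of this length, the ERR half-site was found in 4.08%, the composite in 3.45%, the hypoxia core in 38.6%, the CCAAT box in 33.9%, the antioxidant core in 10.2% and the cAMP element in 1.55%. All 9 enzyme genes had a window (11 in all, since Me1 and Pcx have 2 starts each), and 6 of these windows held the hypoxia core (Glud1, Got1, Got2, Mdh1, 1 of Me1 and 1 of Pcx). The composite was found in Got1 and Me3, the ERR half-site in Got1, and the CCAAT box in Glul, Got1, Mdh1, Me1 and Pcx. Neither the antioxidant core nor the cAMP element occurred in any of the 11. A match of letters is a description of the window and not a bound site.

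Got1, the cytosolic aspartate transaminase (chromosome 19, 43967953 to 43996074, minus strand), was lower in KO. It stood at 805, 916 and 1075 CPM in WT and at 682, 784 and 906 in KO, and 4 of the 6 KO libraries lay below the WT range. Its log2 fold change was -0.27 (standard error 0.08, 95% interval -0.44 to -0.10, edgeR adjusted p = 0.0090), and the level fell by 17.1%.

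Got2, the mitochondrial aspartate transaminase (chromosome 8, 100955577 to 100989268, minus strand), stood at 1041, 1119 and 1186 CPM in WT and at 1047, 1132 and 1268 in KO. The groups overlapped over most of their range, and 2 KO libraries (replicates 3 and 6, at 1268 and 1265) were above all WT libraries. Its log2 fold change of 0.04 (standard error 0.06, edgeR adjusted p = 0.56) was not called, and its 95% interval, -0.08 to 0.17, does not reach the change seen in Got1. Without KO replicates 3 and 6 the log2 fold change of Got2 was -0.021 (adjusted p = 0.76). The log2 ratio of Got1 to Got2 was 0.20 ± 0.17 in WT and -0.11 ± 0.10 in KO (SD, n = 6 each), a difference of -0.31 (standard error 0.08; two-sided exact permutation test, p = 0.011, adjusted p = 0.014). Got1 made up 53.5% ± 2.94 of the aspartate transaminase FPKM in WT and 48.1% ± 1.78 in KO.

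Mdh1, the cytosolic malate dehydrogenase of the same shuttle (chromosome 11, 20032706 to 20048357, minus strand), stood at 1741, 2009 and 2037 CPM in WT and at 1545, 1710.1 and 1935 in KO. The groups overlapped, with 4 KO libraries below the WT range. The log2 fold change was -0.19 (standard error 0.06, edgeR adjusted p = 0.023), and the level fell by 12.1%. The call was lost in 1 of 12 fits with a library left out. Without KO replicate 1, the lowest at 1545 CPM, the log2 fold change was -0.16 and the edgeR adjusted p 0.056. The Mdh1 span shares 133 bases with Wdpcp on the other strand, which had a median of 114 counts against 48950 for Mdh1.

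Of the 4 shuttle partners outside the 9 genes, 3 were lower and 1 was not called. Mdh2, the mitochondrial malate dehydrogenase, had a log2 fold change of -0.33 (edgeR adjusted p = 0.00029). The aspartate-glutamate carriers Slc25a12 and Slc25a13 had log2 fold changes of -0.18 (adjusted p = 0.0029) and -0.47 (adjusted p = 1.6e-06). The malate carrier Slc25a11, whose span overlaps Rnf167, had -0.13 (adjusted p = 0.064). With Got1 and Mdh1, 5 of the 7 shuttle genes examined were lower, beside 25.5% of all rows, a difference that was not tested, and Got2 and Slc25a11 were not called. The log2 ratio of Mdh1 to Mdh2 was 0.72 ± 0.14 in WT and 0.87 ± 0.07 in KO, a difference of 0.15 (two-sided exact permutation test, p = 0.035, adjusted p = 0.035), and it lost its call without any 1 of WT replicates 2 and 6 or KO replicates 1, 2, 4, 5 and 6 (adjusted p of 0.052 to 0.082).

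**Figure D3:**
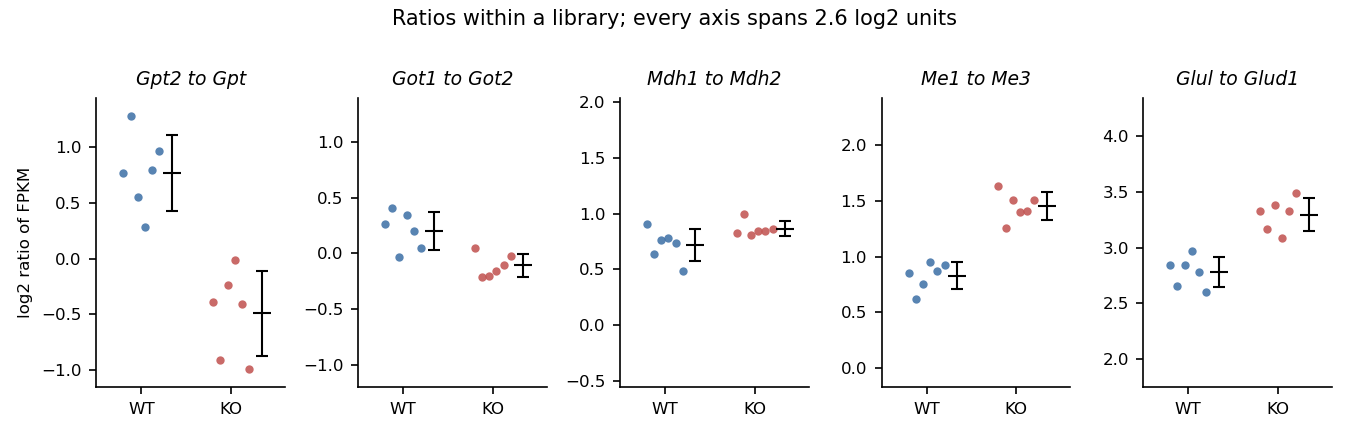
Each panel plots the log2 ratio of the FPKM of a pair of genes in every library, WT in blue and KO in red, with the mean and SD as a black cross bar, on axes of equal span. WT and KO points do not overlap for Gpt2 to Gpt, Me1 to Me3 and Glul to Glud1, and they overlap for Got1 to Got2 and Mdh1 to Mdh2.

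Glul, glutamine synthetase (chromosome 1, 164242454 to 164257514, plus strand), had the largest rise of the 9 genes. It stood at 809.6, 915 and 1003 CPM in WT and at 994, 1168 and 1391 in KO. KO replicate 4, at 994, fell within the WT range, and the other 5 KO libraries were above it. Mean levels were 908 ± 73.5 and 1185 ± 136 CPM (SD, n = 6 each). The log2 fold change was 0.38 (95% interval 0.22 to 0.55, standard error 0.08, edgeR adjusted p = 0.00051), or a level 30.5% higher. Its span shares 285 bases with Teddm2 on the other strand, which had a median of 157 counts against 27080 for Glul.

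Glud1, which deaminates glutamate to alpha-ketoglutarate in mitochondria (chromosome 14, 28717458 to 28757889, plus strand), moved the other way and by little. It stood at 155.6, 157.6 and 168 CPM in WT and at 135.5, 147 and 152 in KO. The groups did not overlap, although the highest KO and the lowest WT library were only a few CPM apart. The log2 fold change was -0.13 (standard error 0.04, edgeR adjusted p = 0.016), the level fell by 8.83%, and 75.2% of all rows had a larger absolute change. The log2 ratio of Glul to Glud1 went from 2.78 ± 0.13 to 3.30 ± 0.15, a difference of 0.51 (standard error 0.08; two-sided exact permutation test, p = 0.0022, adjusted p = 0.0036).

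Of 6 tested genes of glutamine and glutamate transport across the cell or mitochondrial membrane, in either direction, 3 were higher and 1 was lower. The share called was 66.7%, against 51.1% of all rows, and this difference was not tested. The glutamate transporter Slc1a3 had a log2 fold change of 2.52 (edgeR adjusted p = 1.9e-08), from 1.77 ± 0.550 to 10.1 ± 2.12 CPM. The glutamine transporter Slc1a5 had 0.99 (adjusted p = 1.7e-05), and the mitochondrial glutamate carrier Slc25a22 had -0.92 (adjusted p = 1.2e-05). Fibroblast markers rose in the same hearts as Glul and Slc1a3 (above), and their part in these rises was not tested.

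Pcx, pyruvate carboxylase (chromosome 19, 1436894 to 1561183, plus strand), showed the second largest change of the 9 genes. It stood at 31.3, 33.4 and 36.9 CPM in WT and at 17.4, 19.8 and 22.2 in KO. The groups were far apart and narrow, with SDs of 1.89 and 1.66 CPM around means of 33.8 and 19.8. Its log2 fold change was -0.77 (standard error 0.06, 95% interval -0.91 to -0.64, edgeR adjusted p = 4.5e-08), and the level fell by 41.5%. Pcx shares 3883 bases of its span with Lrfn4 on the other strand, which had a median of 350.5 counts against 726 for Pcx. These spans include introns, and whether the shared bases lie in exons of both genes was not examined. The sources used here do not say whether the counting used strand, so whether reads of the pair were mixed is not known.

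Among 11 tested genes of other anaplerotic and cataplerotic steps, 3 were higher and 6 were lower. Of these 81.8% were called, against 51.1% of all rows, a difference that was not tested. Methylmalonyl-CoA mutase, Mmut, which feeds propionate carbon into the cycle as succinyl-CoA and whose span overlaps Cenpq, had a log2 fold change of -1.07 (edgeR adjusted p = 1.5e-09). Adss1, the adenylosuccinate synthase of the muscle purine nucleotide cycle, had 1.77 (adjusted p = 7.0e-09), from 124 ± 8.72 to 424 ± 85.3 CPM. Other genes of that cycle differed in direction. Adsl had -0.49 (adjusted p = 2.2e-07) and Ampd3, whose span overlaps Rnf141, had -0.43 (adjusted p = 0.00036), both without overlap of the groups. Adss2, a second adenylosuccinate synthase, had 0.26 (adjusted p = 0.048, groups overlapping). Of 4 carriers for malate, citrate and pyruvate, 75% were called, beside the same 51.1% of all rows. The mitochondrial pyruvate carrier subunits Mpc1 and Mpc2 were lower, with log2 fold changes of -0.18 (adjusted p = 0.036) and -0.41 (adjusted p = 4.0e-06). The dicarboxylate carrier Slc25a10 was higher, with 0.71 (adjusted p = 4.8e-06). Pcx and both subunits of the carrier that brings its substrate into mitochondria were thus lower in KO. Mpc1 was no longer called in 7 of 12 fits with a library left out.

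Me3, the mitochondrial NADP-dependent malic enzyme, stood at 75.4, 80.0 and 86.7 CPM in WT and at 53.5, 63.1 and 68.0 in KO. Every KO library was below every WT library. Its log2 fold change was -0.39 (standard error 0.06, 95% interval -0.51 to -0.26, edgeR adjusted p = 3.6e-05), and the level fell by 23.6%.

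Me1, the cytosolic NADP-dependent malic enzyme (chromosome 9, 89768088 to 89904185, minus strand), stood at 103.6, 124 and 133 CPM in WT and at 126, 147 and 156 in KO. KO replicates 2 and 4 lay inside the WT range and the other 4 lay above it. The log2 fold change was 0.24 (standard error 0.07, 95% interval 0.09 to 0.38, edgeR adjusted p = 0.0085), a level 17.7% higher. Set against each other, Me1 and Me3 had a log2 ratio of 0.62 to 0.95 in WT and 1.26 to 1.64 in KO, a difference of 0.63 (standard error 0.07; two-sided exact permutation test, p = 0.0022, adjusted p = 0.0036).

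The third malic enzyme, the mitochondrial NAD-dependent Me2, rose from 9.44 ± 0.569 to 22.4 ± 1.70 CPM (log2 fold change 1.25, edgeR adjusted p = 7.1e-10). In FPKM the family sum was 100.4 ± 5.39 in WT and 108 ± 7.01 in KO. Within it Me1 went from 61.5% to 67.1%, Me2 from 3.83% to 8.45% and Me3 from 34.6% to 24.5%, with no overlap of the groups for any of the 3 shares. These shares too depend on the length, which the FPKM shortens for Me1 and Me3 and not for Me2. With the length column, Me1 went from 62.8% to 65.5% with overlapping groups, Me2 from 6.52% to 13.8% and Me3 from 30.7% to 20.7%, both without overlap. Me1 and Me3, the NADP-dependent malic enzymes, are a source of NADPH. Of 10 genes listed for other NADPH-producing steps, 3 were higher and 6 were lower, and the cofactor that each enzyme used was not examined. The share called was 90%, against 51.1% of all rows, a difference that was not tested. The largest changes among these were in mitochondrial and cytosolic folate enzymes, with Mthfd2 at a log2 fold change of 2.71 (edgeR adjusted p = 1.2e-06), Aldh1l2 at -2.35 (adjusted p = 6.4e-09) and Aldh1l1 at -2.01 (adjusted p = 0.00010), all at mean levels under 20 CPM in either group.

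Among 9 tested transaminases outside the 9 enzyme genes, 2 were higher and 5 were lower. Of these 77.8% were called, against 51.1% of all rows, a difference that was not tested. The mitochondrial branched-chain transaminase Bcat2 had a log2 fold change of -0.65 (edgeR adjusted p = 2.3e-07), from 104 ± 2.94 to 66.4 ± 7.14 CPM. Its cytosolic counterpart Bcat1 had 1.80 (adjusted p = 0.0035), from 1.17 ± 0.692 to 4.09 ± 2.29 CPM with overlapping groups. The kynurenine transaminases Kyat3 and Kyat1 had -1.19 (adjusted p = 3.3e-09) and -0.77 (adjusted p = 4.7e-08). The span of Kyat1 lies within that of Golga2 on the other strand, which had a median of 3371.5 counts against 608 for Kyat1. As for Pcx, whether reads of the pair were mixed is not known. Over all 6 lists of related genes, 44 of 54 could be tested, and 12 were higher and 23 were lower, with a median log2 fold change of -0.25. That is 79.5% called, against 51.1% of all rows, and this difference was not tested either.

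**Figure D4:**
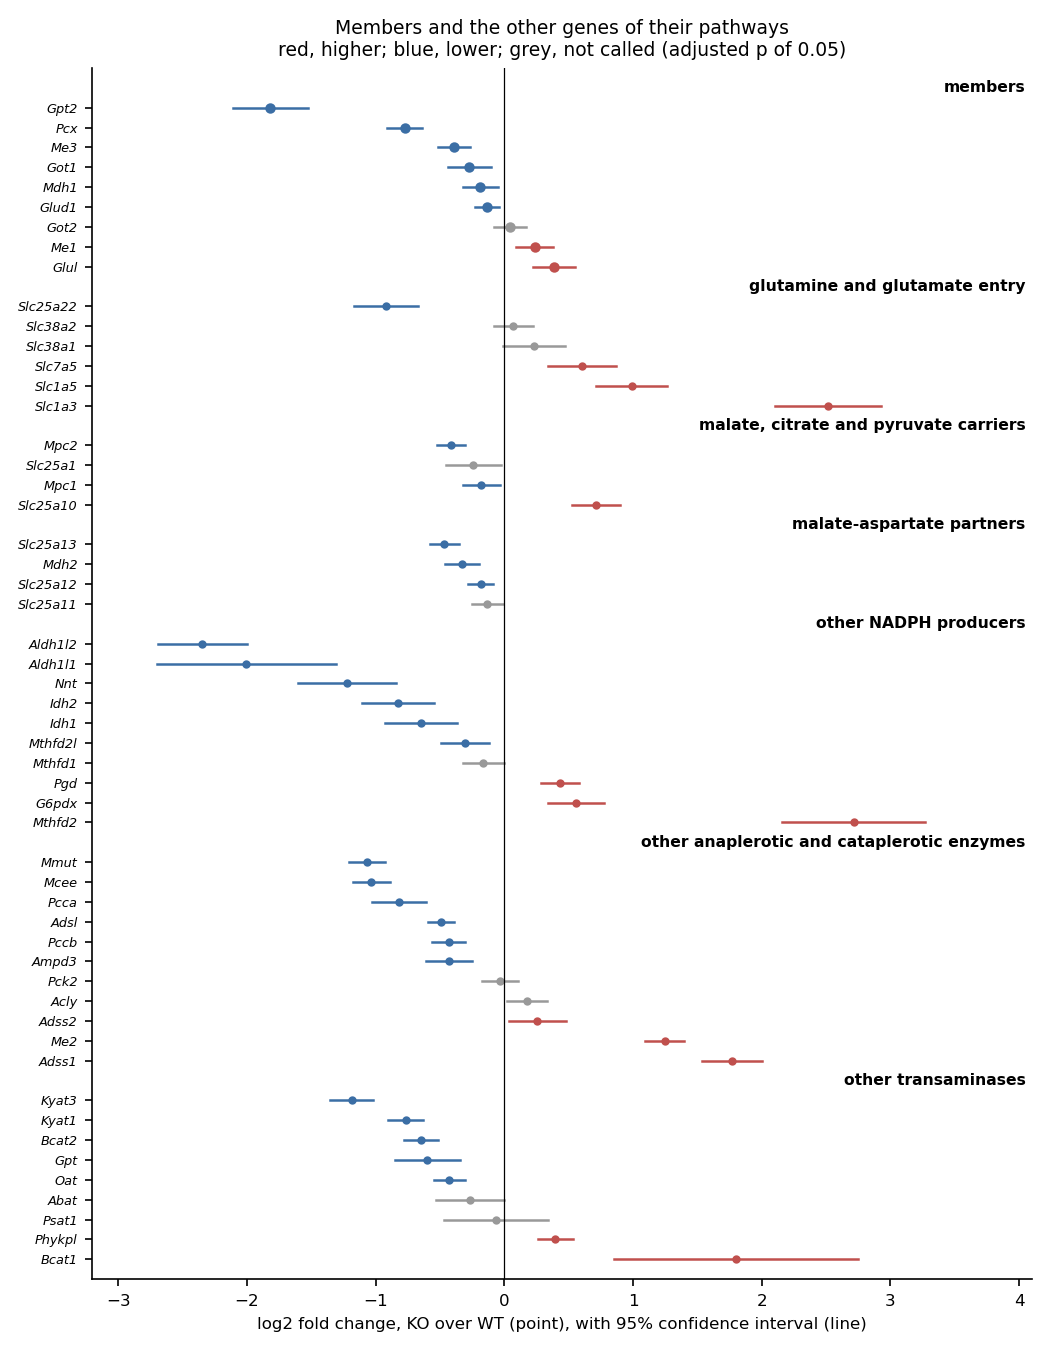
Points give the log2 fold change of KO over WT and lines its 95% interval for the 9 enzyme genes (top) and for the 44 tested genes of the 6 related lists, with red for higher, blue for lower and grey for not called at an adjusted p of 0.05. Gpt2 lies at -1.82, apart from the other 8 enzyme genes, which run from -0.77 to 0.38.

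Per length, the 9 genes spanned a wide range of levels, from Mdh1 at the top to Pcx at the bottom. In WT the order in FPKM was Mdh1 (1983 ± 91.8), Glul (935 ± 63.3), Got1 (782 ± 88.0), Got2 (676 ± 37.6), Glud1 (136 ± 6.06), Me1 (61.8 ± 4.76), Me3 (34.7 ± 1.71), Gpt2 (27.6 ± 3.18) and Pcx (10.2 ± 0.491). The libraries of neighbours overlapped between Glul and Got1, between Got1 and Got2 and between Me3 and Gpt2, so these pairs are not ordered beyond their spread. In KO, Glul (1220 ± 115) stood apart from the aspartate transaminases, Got2 (696 ± 37.5) came above Got1 (647 ± 56.8) with overlap, and Gpt2 (7.83 ± 1.84) overlapped Pcx (5.95 ± 0.450). The authors' FPKM uses a length for each gene that is shorter than the table's own length column (969 against 2792 bases for Glul, 1742 against 3639 for Gpt2). With the length column, Glul had rank 4 in WT and rank 3 in KO, and Gpt2 had rank 9 in KO, below Pcx with overlap, so the order of these genes depends on the length used.

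**Figure D5:**
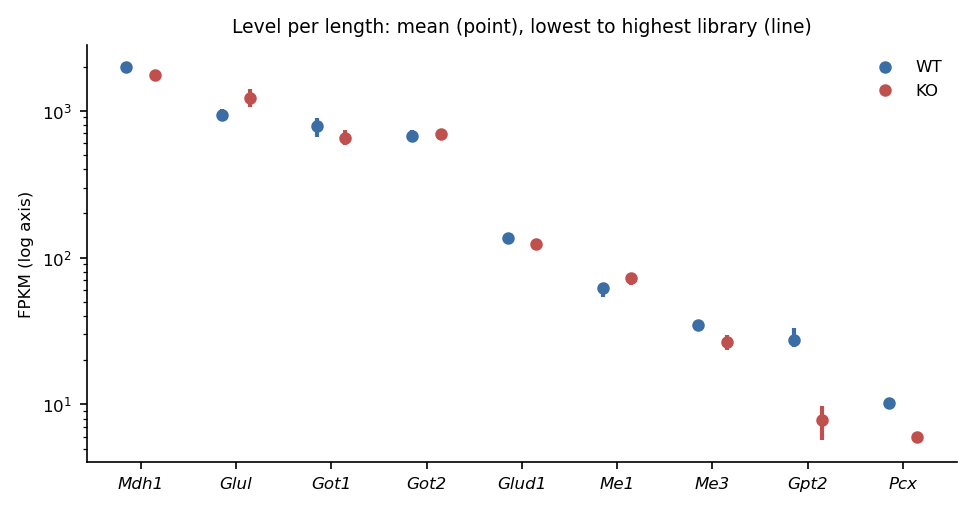
The log axis gives the FPKM of the 9 enzyme genes in the order of their WT means, with a point for the mean of 6 libraries and a line from the lowest to the highest, WT in blue and KO in red. Mdh1 has the highest means (1983 FPKM in WT) and Pcx the lowest (10.2 FPKM in WT), and the widest gap between WT and KO is that of Gpt2.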

How the data were processed

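Libraries of polyA-selected RNA were mapped and counted by the authors, who used HTSeq, and HISAT2 2.0.5 and mm10 are named in the submitters' processing notes. The deposited raw counts per gene were used for all tests between genotypes. The deposited FPKM values (counts scaled by library size and a length per gene, by the authors) were used for ratios and for levels between genes. The authors' own fold changes and p-values from DESeq, and their group means, were not used. The identifiers are of the C57BL/6NJ assembly and coordinates of genes are given on it, while promoter windows are RefSeq's on GRCm38.p6. Of the 43686 rows, 2590 are unannotated loci.

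The counts were fitted with edgeR 4.0.16 under R 4.3.3. Low rows were removed by filterByExpr, which left 17155, and libraries were scaled with TMM factors. Quasi-likelihood fits had robust dispersions and genotype as the only term, and p-values were adjusted by Benjamini-Hochberg over those rows. The 9 genes, the lists, the tests and the rule for named genes were chosen with earlier results of these data known. By that rule the genes named are the 9, the shuttle partners, Me2, Gpt, Bcat2 and Sdhaf4, and the 3 called genes of each list with the largest absolute log2 fold change, and 1 further gene of the rule and its list is not reported here. For 5 pairs of genes, the log2 ratio of FPKM was compared by exact permutation over libraries (Python 3.11.15), with adjustment over the 5. On simulated counts for 16966 genes, the fit recovered 100 of 100 genes changed by 1 log2 unit and 81 of 100 changed by 0.5, with 9 false calls. The changed genes were drawn from rows with higher counts and went up and down in equal number. Dispersions followed the trend, and no library was made to stand apart. These rates need not hold for the real counts, where 51.1% of rows were called.

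Alternatives were other normalizations, filters and tests (DESeq2 1.42.0, limma 3.58.1 with voom or on log2(FPKM + 1), no robust dispersions), leaving out unannotated loci, a replicate block, and each library left out. Matching by gene name only, leaving out WT replicate 6 with KO replicate 3 or KO replicates 3 and 6, and the other length (for levels and shares) were chosen after seeing the data. Within a genotype the chi-square of any 2 libraries was 7.25 to 53.1 times its degrees of freedom, above sampling noise, so none was merged, and KO replicates 3 and 6 stood apart. With library totals of 23747014 to 31393393, each of the 9 genes had at least 263 counts in every library.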

Additional observations from a re-analysis of the deposited data

Results flagged for a closer look

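In 2 of 30 groups of 6 libraries examined, a library lay far from the others of its genotype by a gap test of which chance passes about 1 in 20, or 1.5 of these groups. Sdhaf4 was at 2.73 CPM in KO replicate 1, against 2.25 to 2.41 CPM in the other 5 KO libraries. The log2 ratio of Mdh1 to Mdh2 was 0.99 in KO replicate 2, against 0.81 to 0.86 in the other 5.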

How the results depend on the processing

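None of the 5 ratios and none of the log2 fold changes of the named genes reversed under any alternative, all scalings included, except that of Got2, which was called in none of them and stood at -0.021 without KO replicates 3 and 6. The rows called split almost evenly, 4391 higher and 4376 lower, and this order turned under library size only, upper quartile, limma-voom, limma on log2(FPKM + 1), without unannotated loci, without WT replicate 6 and KO replicate 3, and in 10 of 12 fits with a library left out, with 48.7% to 50.7% higher over the alternatives. Of the 9 enzyme genes, 8 were called (2 higher and 6 lower) in every alternative but 2: 7 without KO replicate 1, where Mdh1 was lost, and 7 when matched by gene name only, which leaves out Me3. Leaving out 1 library at a time gave 8268 to 9003 called rows, 7 to 8 called enzyme genes and 33 to 36 called genes of the related lists, and the other alternatives gave 7947 to 9658 rows, 7 to 8 and 34 to 37. Over the other alternatives, the log2 fold change of Gpt2 was -1.95 to -1.72, that of Pcx -0.80 to -0.69 and that of Glul 0.30 to 0.39. The log2 ratio of Mdh1 to Mdh2 was 0.10 to 0.18 when a library was left out, and 0.16 without KO replicates 3 and 6 (adjusted p = 0.076). Same-numbered WT and KO libraries did not deviate together (correlations of -0.20 to 0.04, 0 of 6 over 0.1, 2 of 6 libraries correlating best with their own number). These correlations show no pairing by number, and with 6 libraries in each group they cannot exclude one. With a replicate block 8233 rows and 8 enzyme genes were called, and the Mdh1 to Mdh2 difference of 0.15 had an adjusted p of 0.125, where 6 pairs allow no p under 0.03125. Outside the 9 genes, Mpc1 lost its call without 1 of 7 libraries and Slc25a11 gained one in 7 fits. The causes were not tested. Depth limits none of the 9 genes, the lowest count being 263.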

Other observations

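The KO libraries did not rank alike across the 9 enzyme genes. KO replicate 6 had the highest KO level of Glul (1391 CPM), Pcx (22.2), Me1 (156) and Got1 (906), and next to the lowest of Gpt2 (10.5). KO replicate 3 had the highest KO level of Gpt2 (17.6 CPM), Mdh1 (1935) and Got2 (1268). KO replicate 4 had the lowest KO level of Glul (994 CPM), Pcx (17.4), Got1 (682) and Got2 (1047), and next to the highest of Gpt2 (16.1). KO replicate 1 had the lowest KO level of Me3 (53.5 CPM), Mdh1 (1545) and Glud1 (135.5). These are values of single libraries, and no test was made of them.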
